A study of Mus musculus with 28 samples.

Results

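The genes described here are 9 cytokine genes that T cells can make: the TNF superfamily ligands Tnf, Lta, Ltb, Tnfsf8, Tnfsf11 and Tnfsf14, and the growth factor cytokines Csf1, Csf2 and Lif. They were chosen by gene symbol and not by a cut on measured values, though earlier results of these data were known. They are 9 of the 25124 genes in the deposited expression table. All 9 passed the filter on low values and were tested among 12182 genes.

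Most TNF superfamily ligands are made as trimeric proteins of the cell membrane, and several of them are cut from the surface to act at a distance. TNF acts through the receptors TNFR1 and TNFR2, lymphotoxin alpha pairs with lymphotoxin beta to engage the lymphotoxin beta receptor, and these signals shape lymphoid tissue and inflammation in the gut wall. The colony stimulating factors CSF1 and GM-CSF (encoded by Csf2) sustain and activate macrophages and other myeloid cells, and LIF signals through a receptor that contains gp130.

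Messenger levels were measured by RNA sequencing of CD4+ T cells sorted from the lamina propria, the connective tissue layer under the epithelium, of the small intestine. Every group came from mice of the T-bet-ZsGreen genotype, a fluorescent reporter of the transcription factor T-bet, and cells were gated as live, CD45+, CD90.2+, TCRb+ and CD4+. Mice were specific-pathogen-free (SPF, colonised by microbes) or germ-free (GF, without them), and were given either an isotype control or an antibody to CD3 (aCD3), a part of the antigen receptor of T cells. The 28 libraries were 6 SPF isotype (3 female, 3 male), 6 SPF aCD3 (3 female, 3 male), 10 GF isotype (5 female, 5 male) and 6 GF aCD3 (1 female, 5 male). The dose, the time from injection to sampling and the age of the mice were not used here. The labels number the replicates by sex, as F1 or M3, but do not say that each is a separate mouse, so p-values measure only the spread between these libraries, which may be technical.

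Levels are in TPM, the share of a library's transcripts that a gene takes, for which the authors divided reads by the whole genomic span of a gene. Reads assigned to genes ranged from 6765529 to 17860611 per library. The least covered cytokine gene was Lta, with 4 to 45 reads per library, and the best covered by its median was Tnfsf8, with 243 to 3309 reads. Fold changes (log2) are on the log2(TPM + 1) scale, and a gene was called where limma's adjusted p over all tested genes was under 0.05. Summed over 9 genes, the CD4+ T cell markers ran from 1802 to 2359 TPM in all 28 libraries. Of all genes tested, 50.7% fell and 14.2% rose with aCD3 in SPF mice, and the median gene moved by -0.35. Under median-of-ratios scaling, which places the median gene near 0, 29.8% fell and 30.2% rose, so values after that scaling are given beside the main ones where a call depends on it.

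The ligand genes Ltb, Tnf and Lta lie side by side on chromosome 17 of mouse build mm10. Ltb (NM_008518, chr17:35194507-35196305, plus strand) is followed after 3061 bases by Tnf (NM_013693, chr17:35199367-35202007, minus strand) and after another 1157 bases by Lta (NM_010735, chr17:35203165-35205351, minus strand). Tnfsf14 (NM_019418, chr17:57189474-57194181, minus strand) lies farther along the same chromosome. Csf1 (NM_001113529) spans chr3:107741048-107760469 on the minus strand. Tnfsf8 (NM_009403, chr4:63832824-63861284), Tnfsf11 (NM_011613, chr14:78277446-78308043) and Csf2 (NM_009969, chr11:54247270-54249899) are also on minus strands, and Lif (NM_001039537, chr11:4266796-4272514) is on the plus strand. The span of Lta overlaps that of the microRNA gene Mir6974, and the span of Ltb overlaps that of Mir6973a, so reads there could belong to either.

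The 250 bases before the start of transcription are shown for the genes of the widest aCD3 differences, Tnfsf14 and Csf1, and for the neighbours Tnf and Ltb, whose levels moved alike. Sequences are from RefSeq (build GRCm38.p6), written 5′ to 3′ on the gene's strand. Capitals mark matches on either strand to the letters searched: GGGNNNTTC for NF-kB, TGGAAA for NFAT, TGANTCA for AP-1 and TCACACC for T-box factors.
Tnf, chr17:35202008-35202257, minus strand: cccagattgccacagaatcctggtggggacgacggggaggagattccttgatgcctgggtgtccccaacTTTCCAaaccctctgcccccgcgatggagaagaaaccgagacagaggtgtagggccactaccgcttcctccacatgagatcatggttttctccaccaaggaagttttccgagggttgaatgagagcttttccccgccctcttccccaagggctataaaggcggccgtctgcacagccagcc
Ltb, chr17:35194257-35194506, plus strand: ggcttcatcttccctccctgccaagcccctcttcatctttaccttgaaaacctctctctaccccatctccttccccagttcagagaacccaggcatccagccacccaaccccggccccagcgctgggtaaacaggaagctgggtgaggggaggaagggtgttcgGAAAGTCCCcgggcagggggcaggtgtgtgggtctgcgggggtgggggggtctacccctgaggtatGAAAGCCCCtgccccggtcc
Tnfsf14, chr17:57194182-57194431, minus strand: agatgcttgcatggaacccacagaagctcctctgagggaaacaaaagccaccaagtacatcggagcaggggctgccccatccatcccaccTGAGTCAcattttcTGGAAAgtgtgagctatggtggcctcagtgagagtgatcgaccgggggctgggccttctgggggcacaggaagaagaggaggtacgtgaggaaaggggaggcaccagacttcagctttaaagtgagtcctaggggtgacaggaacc
Csf1, chr3:107760470-107760719, minus strand: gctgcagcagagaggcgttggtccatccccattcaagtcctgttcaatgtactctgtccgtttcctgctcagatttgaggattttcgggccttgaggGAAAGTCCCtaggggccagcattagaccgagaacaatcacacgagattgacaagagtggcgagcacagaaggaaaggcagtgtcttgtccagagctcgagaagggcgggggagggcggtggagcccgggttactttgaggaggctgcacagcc

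Counted back from the start, Tnf holds the NFAT letters at -181 to -176, and Ltb holds the NF-kB letters at -86 to -78 and at -20 to -12. Tnfsf14 holds AP-1 letters at -160 to -154 and NFAT letters at -146 to -141, and Csf1 holds NF-kB letters at -153 to -145. No match overlapped another. Of the genes not shown, Lta, Tnfsf8 and Tnfsf11 held none of these letters in their windows, and Csf2 held NFAT letters at -201 to -196. The Lif window held AP-1 letters, but it belongs to another transcript, which starts 9228 bases from the start used here. Such letters are common: of 32851 RefSeq promoter windows of 250 bases, 11.8% held the NF-kB letters, 18.6% those of NFAT, 6.75% those of AP-1 and 3.33% those of T-box factors. A match is a description of the sequence, and the absence of a match says only that these letters are not in the window.

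In SPF mice most of the TNF ligand genes fell with aCD3, and Csf1 and Lif rose. The genes Tnf, Ltb, Lta, Tnfsf11 and Tnfsf14 fell, and Tnfsf8 and Csf2 did not pass the test. By the ratio of mean TPM, Csf1 rose 14.3-fold and Lif 3.05-fold. In all, 7 of 9 genes passed, against 64.8% of all genes tested, with 5 lower and 2 higher. Under median-of-ratios scaling 6 of 9 passed, against 60.0% of all genes, with 4 lower and 2 higher. The median log2 fold change of the 9 genes was -0.75, beside -0.35 for all genes tested. Without any overlap between the groups' libraries, 4 genes were lower and 1 higher, against 33.4% and 8.57% of all genes tested.

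Tnf, the founding ligand of the family and a main driver of inflammation, ranged from 65.3 to 96.6 TPM in SPF isotype libraries (median 78.8) and from 21.8 to 45.4 TPM in SPF aCD3 libraries (median 35.2). Each aCD3 library lay below each isotype library. The means of 81.0 ± 12.8 and 34.4 ± 7.61 TPM (SD, n = 6 each) differed 2.35-fold, a log2 fold change of -1.23 (SE 0.17, adjusted p = 4.28e-06), or -0.82 under median-of-ratios scaling. In sorted populations, fewer cells of a type and less RNA per cell cannot be told apart. Ltb, which anchors lymphotoxin to the cell surface, had the highest TPM of the 9 genes. Its values ran from 153 to 235 TPM in SPF isotype (median 194.5) and from 67.5 to 111 TPM in SPF aCD3 (median 86.8). All aCD3 libraries were below all isotype libraries, and Ltb fell by 1.13 on the log2 scale (SE 0.23, adjusted p = 0.0002). Lta, the soluble lymphotoxin subunit, was far lower, at 5.11 to 10.6 TPM in isotype (median 5.81) and 0.999 to 6.30 TPM in aCD3 (median 4.52). Its groups overlapped, with 4 of 6 aCD3 libraries below all isotype libraries. The Lta difference of -0.75 (SE 0.27, adjusted p = 0.0191) was no longer called under median-of-ratios scaling (-0.43, adjusted p = 0.216), nor without isotype F1, aCD3 M1 or aCD3 M2 (adjusted p = 0.0539, 0.0746 and 0.0611).

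Ltb and Tnf kept about the same proportion to each other within a library. The ratio of Ltb to Tnf, which no scaling between libraries can move, had medians of 2.57 (isotype) and 2.41 (aCD3) in SPF mice, and of 2.42 (isotype) and 2.85 (aCD3) in GF mice. Over all groups it ran from 1.26 to 3.71, and the groups' ranges overlapped.

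Tnfsf14 encodes LIGHT, a ligand of HVEM and of the lymphotoxin beta receptor. It showed the widest fall of the 9 genes. SPF isotype libraries held 34.8 to 63.0 TPM (median 46.8), and SPF aCD3 libraries held 2.77 to 5.92 TPM (median 4.50), so the highest aCD3 library was well under the lowest isotype library. The mean was 10.6-fold lower, at 4.52 ± 1.26 against 47.7 ± 9.81 TPM (SD, n = 6 each). The log2 fold change was -3.15 (SE 0.31, adjusted p = 2.96e-07), and -2.80 under median-of-ratios scaling. Relative to Tnf in the same library, Tnfsf14 went from a median ratio of 0.638 in SPF isotype to 0.130 in SPF aCD3, without overlap.

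Tnfsf11 encodes RANKL, known for bone resorption and for the cells over gut lymphoid follicles. It ranged from 9.85 to 16.0 TPM in SPF isotype (median 12.4) and from 3.47 to 8.12 TPM in SPF aCD3 (median 5.97), without overlap. It fell by 1.01 on the log2 scale (SE 0.26, adjusted p = 0.00182). Within SPF aCD3 the 3 female libraries held 7.20 to 8.12 TPM and the 3 male libraries 3.47 to 4.75 TPM. Tnfsf8, the ligand of CD30, held 16.1 to 27.8 TPM in isotype and 10.3 to 19.7 TPM in aCD3, and these ranges overlapped. Its log2 fold change was -0.31 (SE 0.47, 95% confidence interval -1.28 to 0.67, adjusted p = 0.585).

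**Figure D1:**
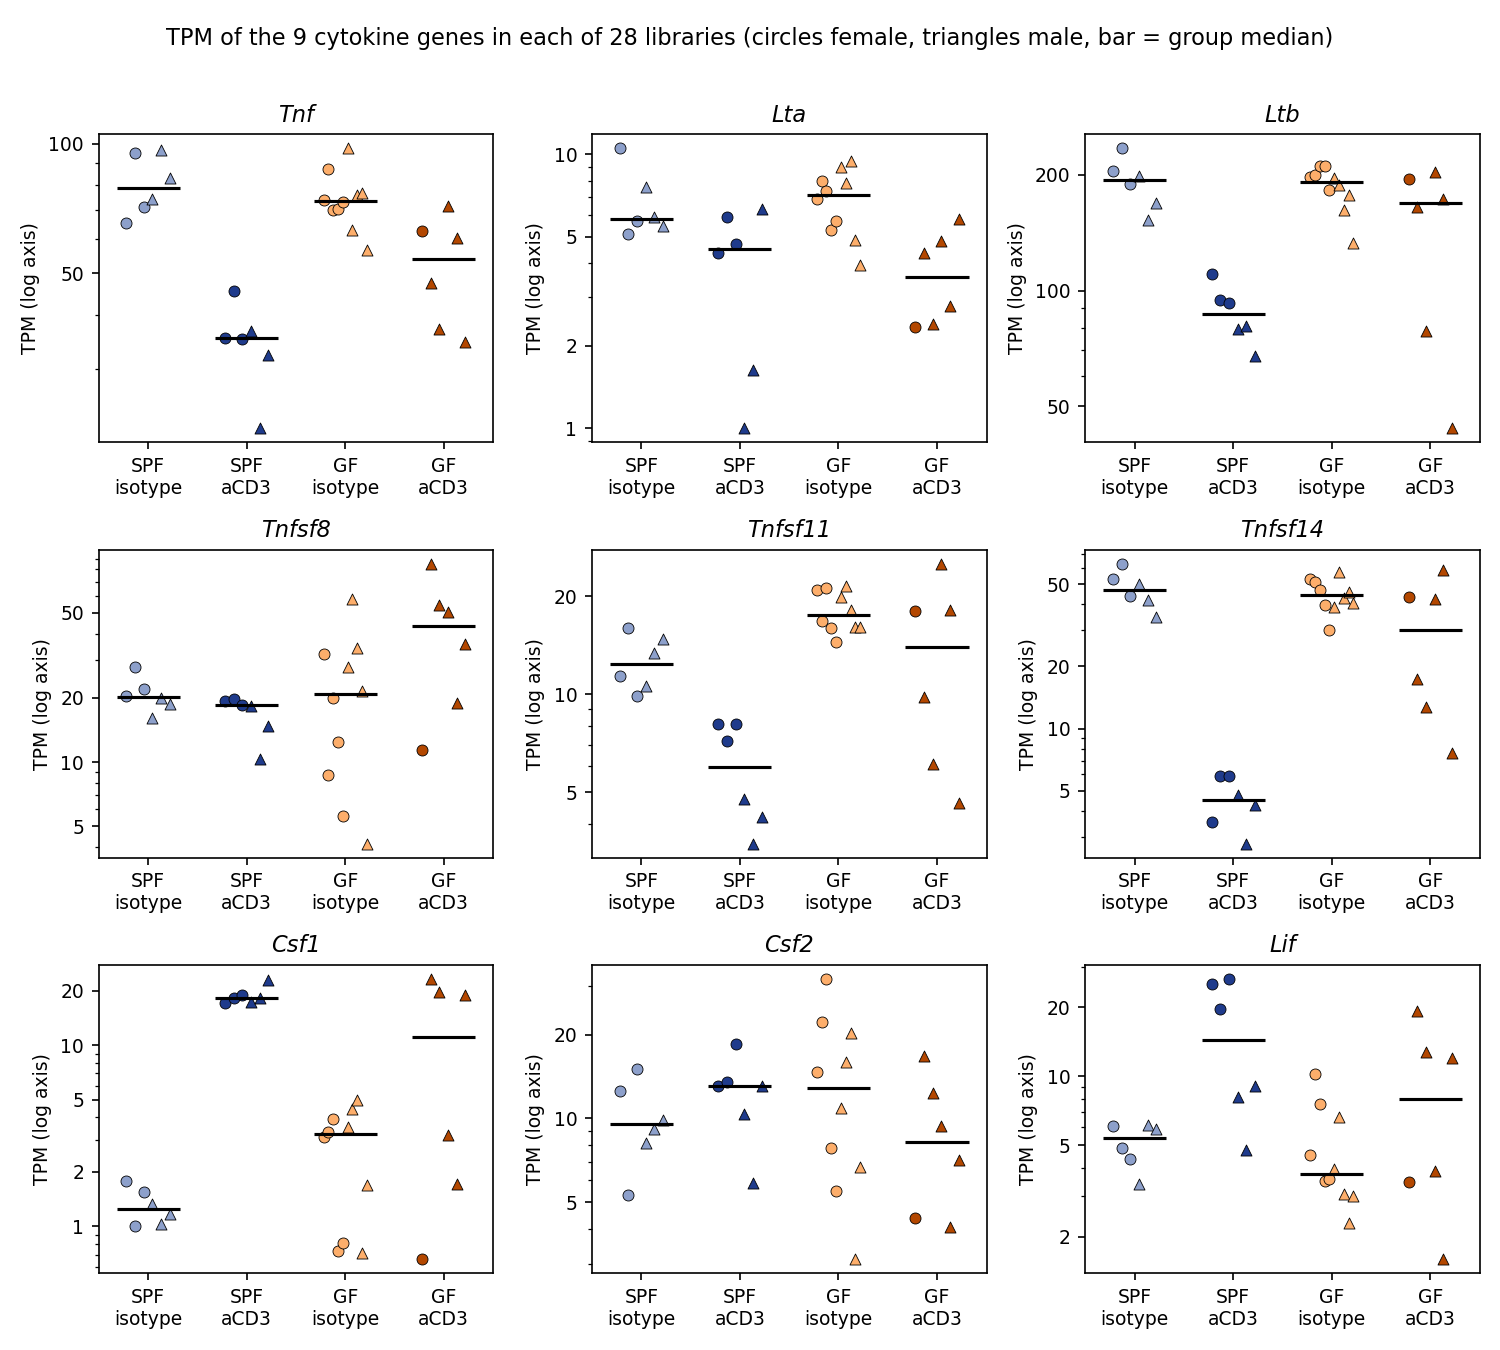
TPM on a log axis (vertical) of each cytokine gene in each library, by group (horizontal); circles are female and triangles male libraries, and bars are group medians. Tnf, Ltb, Tnfsf11 and Tnfsf14 are lower and Csf1 is higher in all 6 SPF aCD3 libraries than in all 6 SPF isotype libraries, while the 6 GF aCD3 libraries spread from levels within the isotype range to levels near those of SPF aCD3.

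Csf1, the growth factor of macrophages, moved the other way from the ligands. It was low in SPF isotype, at 1.01 to 1.78 TPM (median 1.25), and reached 17.1 to 23.1 TPM in SPF aCD3 (median 18.2). No library of either group lay within the range of the other. The means were 1.31 ± 0.308 and 18.8 ± 2.18 TPM (SD, n = 6 each), a log2 fold change of 3.10 (SE 0.49, adjusted p = 1.4e-05), and 3.48 under median-of-ratios scaling. The isotype level is near the 1 TPM added before logs, and over 13 other settings the log2 fold change ran from 1.91 to 4.32. The spread of Csf1 in SPF aCD3, a coefficient of variation of 11.6%, was the lowest of the 9 genes in that group.

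Lif, a cytokine of the interleukin 6 family, held 3.38 to 6.15 TPM in SPF isotype (median 5.38) and 4.77 to 26.6 TPM in SPF aCD3 (median 14.4). It rose by 1.23 on the log2 scale (SE 0.41, adjusted p = 0.0117), and 5 of 6 aCD3 libraries were above all isotype libraries. The aCD3 libraries separated by sex: the 3 female libraries held 19.7 to 26.6 TPM and the 3 male libraries 4.77 to 9.08 TPM, while female and male isotype libraries held 4.37 to 6.05 and 3.38 to 6.15 TPM. In a test added after these values were seen, Lif in SPF aCD3 differed by -1.61 (log2, male minus female, SE 0.54), which did not pass over all genes (adjusted p = 0.36), and neither did the difference of the aCD3 effects between the sexes (-1.59, adjusted p = 0.659; 0.0% of all genes passed in the latter). No cytokine gene of the 9 passed in the test by sex within SPF aCD3, against 0.197% of all genes. Female and male libraries of SPF aCD3 did not overlap in 5 of 9 genes, against 21.5% of all genes, with the female libraries higher: besides Lif and Tnfsf11 these were Ltb (92.8 to 111 against 67.5 to 80.9 TPM), Tnfsf8 (18.6 to 19.7 against 10.3 to 18.4 TPM) and Csf2 (13.13 to 18.5 against 5.87 to 13.09 TPM). Female and male libraries of this group also have separate sample numbers, 7 to 9 and 10 to 12, so sex and number order cannot be told apart. The SPF isotype libraries are numbered 1 to 6 and the SPF aCD3 libraries 7 to 12, so aCD3 and number order cannot be told apart either. Csf2, which encodes GM-CSF, ran from 5.31 to 15.1 TPM in isotype and from 5.87 to 18.5 TPM in aCD3, with a log2 fold change of 0.28 (SE 0.40, 95% confidence interval -0.55 to 1.11, adjusted p = 0.558).

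Markers of other cells moved with aCD3 in SPF mice. The summed level of 8 B and plasma cell markers ran from 95.8 to 272 TPM in SPF isotype and from 2.57 to 8.82 TPM in SPF aCD3. Most of it was Jchain, the joining chain of secreted antibodies, at 87.4 to 259 TPM in SPF isotype and 0.128 to 1.55 TPM in SPF aCD3. The sum over 9 stromal markers ran from 15.3 to 51.5 and from 3.29 to 6.38 TPM. The sum over 12 myeloid markers went from 6.67 to 15.8 TPM in isotype up to 59.4 to 108 TPM in aCD3, but Cd68 alone held 54.4 to 106 TPM there, Csf1r held 0.046 to 0.161 TPM and C1qa and C1qb were at 0 in all 6 libraries. The 9 genes listed for innate lymphoid and lymphoid tissue inducer cells, several of which CD4+ T cells also express, summed to 1695 to 2328 TPM in isotype and 1333 to 1780 TPM in aCD3, nearly all of it Id2. Of 7 tested, 3 fell and 1 rose. Il23r held 8.45 to 13.9 and 1.88 to 5.78 TPM, Ncr1 2.30 to 5.97 and 0 to 0.638 TPM, and Kit 0.764 to 1.39 and 3.94 to 5.21 TPM. Cd8a, of the CD8+ T cell list, held 5.19 to 12.7 and 8.78 to 22.0 TPM, and the sum over 8 epithelial markers 6.86 to 15.5 and 5.02 to 9.75 TPM. The part of these markers in the results on the 9 cytokine genes was not tested.

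Of the other TNF ligands and growth factor cytokines, none was called higher with aCD3 in SPF mice, and 1 was under median-of-ratios scaling. Of 12 other TNF ligand genes 6 were tested, and 5 of these fell and none rose, with a median log2 fold change of -0.73 beside -0.35 for all genes. Under median-of-ratios scaling 3 of the 6 were lower and none higher, and 50.7% of all genes fell without it and 29.8% under that scaling. Cd40lg, which gives help to B cells, had the widest fall (-2.88, SE 0.37, adjusted p = 2.59e-06), from 222 ± 34.6 to 29.2 ± 3.29 TPM (SD, n = 6 each). Fasl, which triggers cell death, fell by 1.53 (SE 0.30, adjusted p = 0.000112), and Tnfsf10 (TRAIL) by 0.33 (SE 0.11, adjusted p = 0.0105), which became 0.072 and not called under median-of-ratios scaling. Of 12 further growth factor cytokines 5 were tested, and Flt3l, a factor for dendritic cells, fell by 1.17 (SE 0.19, adjusted p = 2.08e-05), as did Clcf1 by 1.06 (SE 0.23, adjusted p = 0.000268). Their median was 0.042, and Osm, at 5.01 ± 0.476 and 6.14 ± 0.828 TPM (SD, n = 6 each), did not pass. Under median-of-ratios scaling 2 of these 5 were lower and 1 higher.

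Receptors for several of the 9 cytokines were not detected above the filter in the sorted cells. Of 13 receptor genes 7 were too low to test, among them Ltbr (lymphotoxin beta receptor), Tnfrsf11a (RANK), Csf1r, Lifr and both beta chains of the GM-CSF receptor. Highest of the receptor genes was Tnfrsf1b (TNFR2), at 62.4 to 90.5 TPM in SPF isotype and 54.2 to 76.4 TPM in SPF aCD3. Tnfrsf1a (TNFR1) fell from 24.3 ± 3.40 to 9.16 ± 1.30 TPM (SD, n = 6 each), by 1.32 on the log2 scale (SE 0.21, adjusted p = 1.75e-05). Tnfrsf14 (HVEM), a receptor of LIGHT, held 17.7 to 30.0 TPM in isotype and 20.4 to 31.2 TPM in aCD3. Tnfrsf8 (CD30), named here after its values were seen, rose from 0.622 ± 0.237 to 2.20 ± 0.786 TPM (SD, n = 6 each; log2 fold change 0.95, adjusted p = 0.0034). No SPF isotype library reached the 1 TPM of the filter on low values in Tnfrsf8 (highest 0.903 TPM). The gene passed that filter through other libraries, aCD3 libraries among them, so the filter favoured a rise. Il6st, which encodes gp130, fell by 0.30 (SE 0.12, adjusted p = 0.0328), but stood at 0.092 under median-of-ratios scaling. In all, 2 receptor genes fell and 1 rose of 6 tested (50.7% and 14.2% of all genes), and their median was -0.27, beside -0.35 for all genes, while 1 was lower and 2 were higher under median-of-ratios scaling.

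Among 4 tested genes of the shedding machinery that frees TNF from the membrane, Rhbdf2, a partner of the protease ADAM17, rose by 0.71 (SE 0.11, adjusted p = 1.66e-05), from 4.23 ± 0.372 to 7.65 ± 1.43 TPM (SD, n = 6 each). Adam10 fell by 0.22 (SE 0.08, adjusted p = 0.018), which turned to 0.17 under median-of-ratios scaling, where all 4 genes were called higher. Of 24 signalling genes downstream of TNF receptors, 19 fell and none rose (50.7% and 14.2% of all genes), with a median of -0.48 beside -0.35. Under median-of-ratios scaling 11 were lower and 4 higher (29.8% and 30.2% of all genes). Map3k14, the kinase of the alternative NF-kB pathway, fell by 2.24 (SE 0.32, adjusted p = 6.2e-06), and the feedback inhibitors Tnfaip3 (-1.32, adjusted p = 8.09e-05) and Birc3 (-1.31, adjusted p = 5.1e-06) also fell. Of 22 regulators of cytokine transcription or messenger decay, 13 fell and 3 rose, shares near those of all genes, with a median of -0.54 beside -0.35, and 10 were lower and 6 higher under median-of-ratios scaling. The AP-1 subunits Fos (-2.41, adjusted p = 3.35e-07) and Jun (-2.39, adjusted p = 4.85e-07) and the messenger decay factor Zfp36l2 (-2.37, adjusted p = 9.16e-06) fell most.

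**Figure D2:**
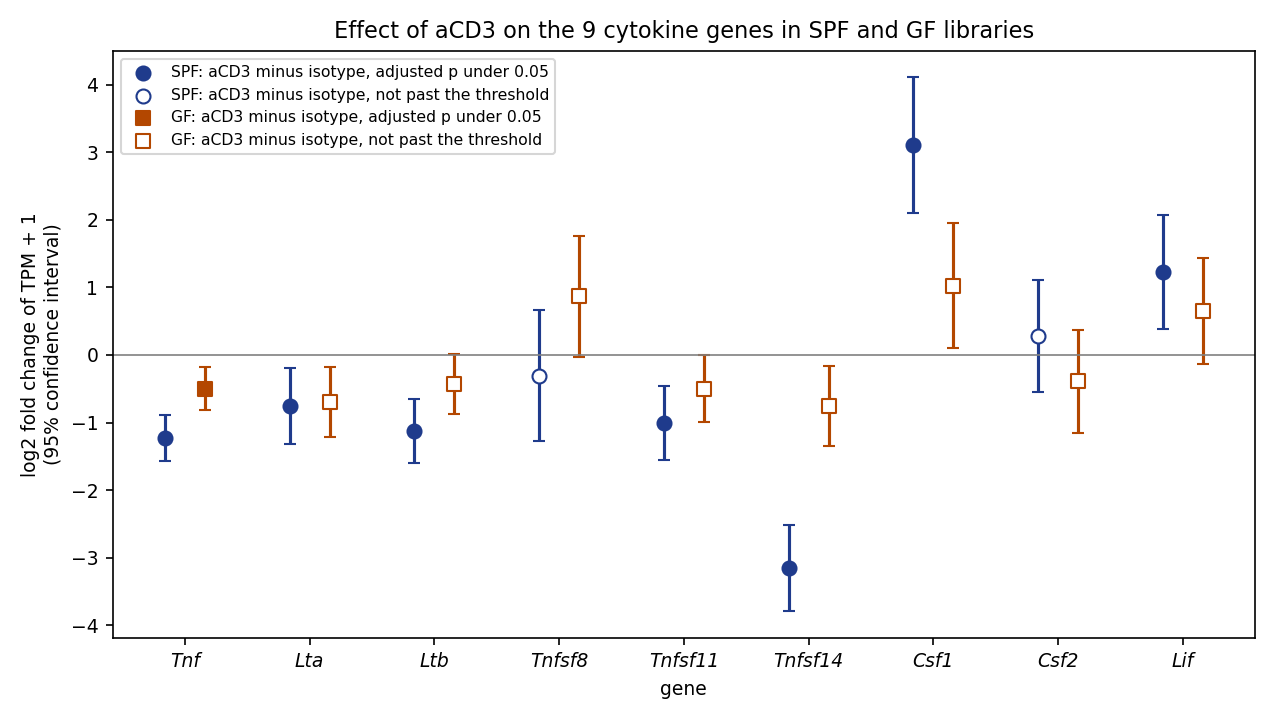
Log2 fold change of TPM + 1 (vertical, with 95% confidence intervals) of aCD3 against isotype for each cytokine gene (horizontal) in SPF (blue circles) and GF (orange squares); filled marks passed at an adjusted p under 0.05. In SPF 7 of 9 marks are filled, with Tnfsf14 at -3.15 and Csf1 at 3.10, and in GF only Tnf is filled, at -0.50.

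In germ-free mice only Tnf passed the test, and the 6 aCD3 libraries did not behave as a single group. Tnf ran from 56.7 to 97.6 TPM in the 10 GF isotype libraries (median 73.5). In GF aCD3 it was 34.6 TPM in M5, 37.1 in M2, 47.5 in M1, 60.3 in M4, 62.6 in F1 and 71.8 in M3. The first 3 of these lay below all isotype libraries and the other 3 lay among them. Tnf fell by 0.50 on the log2 scale (SE 0.15, adjusted p = 0.0499). That was 1 of 9 genes, against 7.08% of all genes tested (4.61% were lower). The call did not hold under median-of-ratios scaling (-0.33, adjusted p = 0.0699), where 0 of 9 genes passed against 9.65% of all genes. It did not hold either when any 1 of the 10 GF isotype libraries or of M1, M2 and M5 was left out, with Tnf at -0.40 to -0.54 and adjusted p up to 0.184.

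Tnfsf14 and Csf1 split the same libraries more widely. Tnfsf14 ran from 30.2 to 57.2 TPM in GF isotype (median 44.3), and in GF aCD3 it was 7.66 TPM in M5, 12.7 in M2, 17.5 in M1, 42.6 in M3, 43.6 in F1 and 58.5 in M4. Csf1 ran from 0.718 to 4.96 TPM in GF isotype (median 3.22), and in GF aCD3 it was 18.9 TPM in M5, 19.6 in M2 and 23.2 in M1, but 3.20 in M3, 1.73 in M4 and 0.660 in F1. So M1, M2 and M5 lay below all isotype libraries in Tnfsf14 and above all of them in Csf1, and the other 3 did neither. As a group the 6 libraries gave log2 fold changes of -0.75 for Tnfsf14 (SE 0.29, adjusted p = 0.0768) and 1.03 for Csf1 (SE 0.45, adjusted p = 0.108). Each gene passed when F1, M3 or M4 was left out, with Tnfsf14 at -0.91 to -0.99 and Csf1 at 1.20 to 1.56. Without M1, M2 or M5 neither passed, with Tnfsf14 at -0.67, -0.59 and -0.46 and Csf1 at 0.72, 0.76 and 0.77, so these values rest on which libraries are in the group.

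The ratio of Csf1 to Tnfsf14 in a library, chosen after the values were seen, is free of scaling. In SPF mice it ran from 0.0160 to 0.0356 with isotype and from 3.10 to 6.54 with aCD3, and GF isotype libraries held 0.0157 to 0.116. In GF aCD3 it was 0.0152 in F1, 0.0295 in M4 and 0.0751 in M3, within or just under the isotype ranges, and 1.33 in M1, 1.54 in M2 and 2.47 in M5, between the isotype and the SPF aCD3 ranges. The same 3 libraries held 452 to 527 TPM of Lag3, a receptor induced on activated T cells, and the other GF aCD3 libraries 9.59 to 17.0 TPM. Isotype libraries of SPF and GF mice held 5.41 to 18.5 TPM of Lag3, and SPF aCD3 libraries 505 to 825 TPM.

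**Figure D3:**
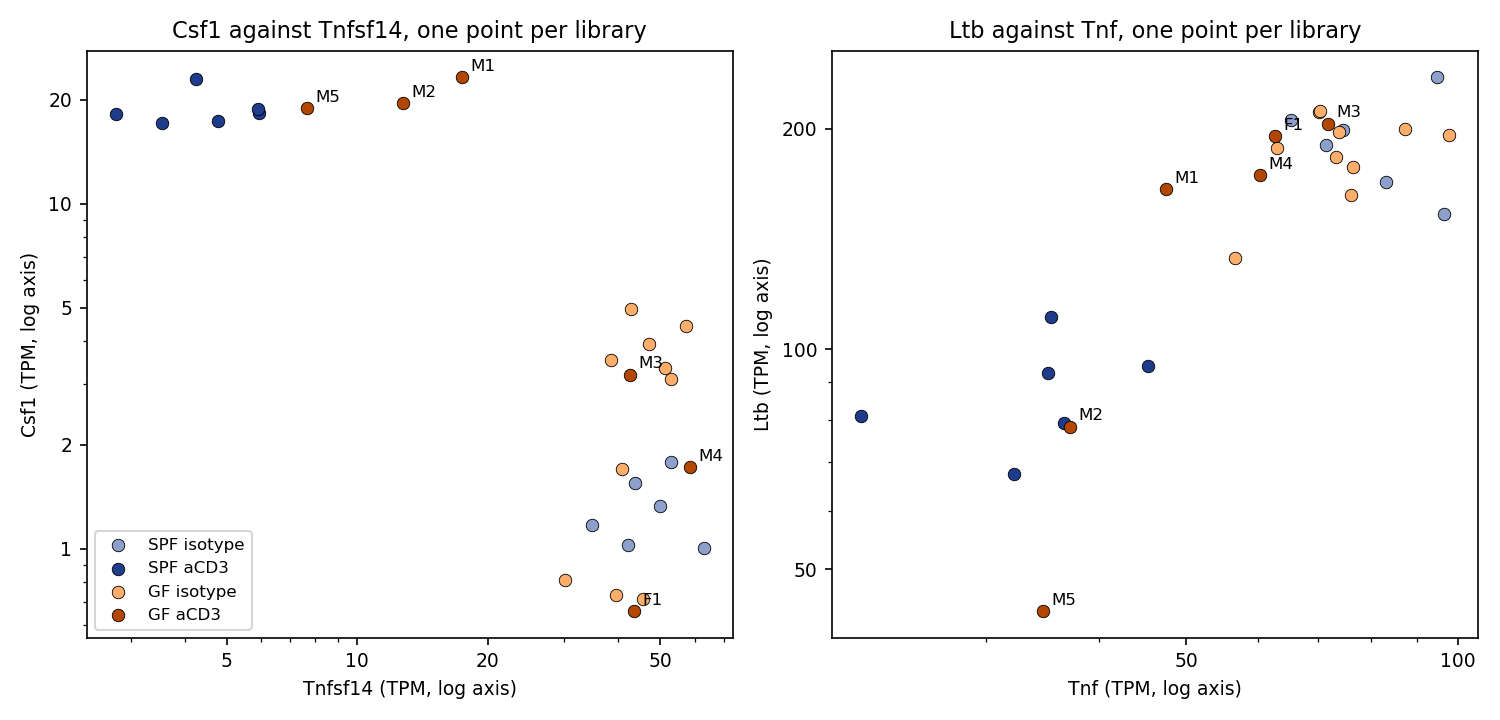
Levels in TPM on log axes, with 1 point per library coloured by group and the GF aCD3 libraries named: Csf1 against Tnfsf14 (left) and Ltb against Tnf (right). In the left plot GF aCD3 M1, M2 and M5 lie near the SPF aCD3 libraries in Csf1, at 18.9 to 23.2 TPM. In Tnfsf14, at 7.66 to 17.5 TPM, they lie between the SPF aCD3 and the isotype libraries. F1, M3 and M4 lie among or just beyond the isotype libraries.

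The remaining genes followed the same split in part. Tnfsf11 was 4.63 TPM in M5, 6.11 in M2 and 9.83 in M1, below the GF isotype range of 14.5 to 21.6 TPM, and 18.1 in F1, 18.1 in M4 and 25.2 in M3. Lif was 12.03 TPM in M5, 12.8 in M2 and 19.2 in M1, above the isotype range of 2.29 to 10.2 TPM, and 1.60 to 3.85 TPM in the other 3. Ltb was 43.8 TPM in M5 and 78.3 in M2, below the isotype range of 133 to 212 TPM, but 165 TPM in M1 lay inside it. None of these passed as a group, with adjusted p = 0.141 for Tnfsf11, 0.215 for Lif and 0.148 for Ltb. With 1 library left out, log2 fold changes ran from -0.71 to -0.28 for Tnfsf11, 0.37 to 0.99 for Lif and -0.58 to -0.16 for Ltb. Tnfsf11 and Ltb each passed in 1 of these 16 fits, with adjusted p = 0.0195 and 0.0378, and Lif in none. Lta held 2.35 to 5.80 TPM in GF aCD3 and 3.93 to 9.43 TPM in GF isotype (-0.69, SE 0.25, adjusted p = 0.068). Its 3 libraries below the isotype range were F1, M2 and M4, at 2.35, 2.39 and 2.79 TPM, so Lta did not follow the split.

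Markers of other cells followed the split of the GF aCD3 libraries too. Cd68, which made up most of the myeloid sum in M1, M2 and M5, held 44.2 to 58.0 TPM there, 8.33 to 13.1 TPM in F1, M3 and M4 and 3.29 to 18.4 TPM in GF isotype, while C1qa and C1qb were at 0 in M1, M2 and M5. The myeloid sums were 47.8 to 60.6 TPM in M1, M2 and M5, 9.72 to 24.8 TPM in the other 3 and 5.33 to 23.6 TPM in GF isotype. B and plasma cell markers summed to 6.67 to 8.29 TPM in M1, M2 and M5, 19.4 to 97.8 TPM in the other 3 and 10.995 to 114 TPM in GF isotype, and stromal markers to 3.70 to 5.02 TPM, 9.485 to 11.997 TPM and 7.79 to 14.2 TPM. As a group, limma called Kit of the innate lymphoid list higher (0.67, adjusted p = 0.0484), Lgals4 of the epithelial list lower (-0.85, adjusted p = 0.0484) and Thy1 of the CD4+ T cell list, which encodes the CD90 of the sorting gate, lower (-0.54, adjusted p = 0.0481). Cd68 (0.99, adjusted p = 0.13) and Jchain (-2.11, adjusted p = 0.0594) did not pass. In M1, M2 and M5 Kit held 2.84 to 3.41 TPM, Thy1 268 to 309 TPM and Cd8a 8.78 to 12.6 TPM. In F1, M3 and M4 these held 0.486 to 1.01, 449 to 613 and 2.90 to 6.63 TPM, and in GF isotype 0.422 to 1.56, 455 to 798 and 0.944 to 60.0 TPM. The part of these markers in the results on the 9 cytokine genes was not tested.

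Tnfsf8 and Csf2 varied most within GF isotype itself. Tnfsf8 held 4.15 to 58.0 TPM there (median 20.8), and 11.4 to 85.3 TPM in GF aCD3 (median 43.2), with a log2 fold change of 0.87 (SE 0.44, adjusted p = 0.153). Csf2 held 3.12 to 31.8 TPM in GF isotype (median 12.8), and 4.05 to 16.7 TPM in GF aCD3 (median 8.25), a log2 fold change of -0.39 (SE 0.37, adjusted p = 0.454). The median over the 9 genes was -0.43, beside -0.15 for all genes tested. None of the 9 was without overlap between the groups, against 0.0657% of all genes.

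In the related lists, few genes passed in germ-free mice, where 7.08% of all genes did. The calls named here were lost with a pseudocount of 0.1, without a filter, with only the groups compared, or without any 1 of the 10 GF isotype libraries or of GF aCD3 M1, M2 or M5. Under each of these settings limma called 0 genes of the whole table, while 2420 to 4963 had an unadjusted p under 0.05, and voom on the recovered reads called 952. Cd40lg fell (-1.18, SE 0.34, adjusted p = 0.0484) and was the 1 call of 6 other TNF ligand genes. Osm, which encodes oncostatin M, fell by 0.68 (SE 0.18, adjusted p = 0.0481), from 7.79 ± 2.08 (SD, n = 10) to 4.60 ± 1.87 TPM (SD, n = 6), the 1 call of 5 growth factor cytokines. Tnfrsf8, again named after its values were seen, rose by 0.83 (adjusted p = 0.048), the 1 call of 6 receptors. Its median was 0.497 TPM in GF isotype, under the 1 TPM of the filter, and 2.18 TPM in GF aCD3, so the filter favoured this rise too. Birc2 fell by 0.53 (SE 0.16, adjusted p = 0.0496), the 1 call of 24 signalling genes, and 4 of 22 regulators fell, led by Zfp36l2 (-1.22, adjusted p = 0.0481), Fos (-0.91, adjusted p = 0.0481) and Jun (-0.83, adjusted p = 0.0481). Under median-of-ratios scaling 4 regulators were lower and 2 higher, and 1 growth factor cytokine was lower and 1 higher.

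The aCD3 effect differed between SPF and GF mice for Tnfsf14 alone among the 9 genes. The difference of the effects was 2.40 (log2, GF minus SPF, SE 0.42, 95% confidence interval 1.53 to 3.27, adjusted p = 0.00444), and 2.21 under median-of-ratios scaling. This was 1 of 9 genes, against 3.48% of all genes tested. Markers of other cells also differed in this comparison, with Jchain at 4.42 (adjusted p = 0.0288), Cd68 at -2.84 (adjusted p = 0.0289) and Il23r at 1.29 (adjusted p = 0.0499). Dcn and Col1a1 of the stromal list held 1.15 to 11.4 and 1.34 to 10.2 TPM in SPF isotype, and at most 0.526 and 1.32 TPM in the other groups. They passed the filter through SPF isotype, where they are high, so no test of them is given. The part of these markers in the result on Tnfsf14 was not tested. The GF aCD3 group behind this difference was split, with Tnfsf14 at 7.66 to 17.5 TPM in M1, M2 and M5 and at 42.6 to 58.5 TPM, in or just above the GF isotype range, in F1, M3 and M4. For Csf1 it was -2.08 (SE 0.67, adjusted p = 0.0613), and -2.31 under median-of-ratios scaling (adjusted p = 0.0421), where Csf1 and Tnfsf14 were 2 of 9 genes called, against 11.3% of all genes. For Tnf it was 0.73 (SE 0.23, adjusted p = 0.0581). Csf1 and Tnf both passed when SPF isotype F3 or GF aCD3 M1, M2 or M5 was left out, and Ltb passed when M5 was left out (0.97, adjusted p = 0.00587). For the other genes the difference was 0.69 in Ltb, 0.51 in Tnfsf11, 1.17 in Tnfsf8, 0.057 in Lta, -0.67 in Csf2 and -0.58 in Lif, with adjusted p from 0.135 to 0.93. The median over the 9 genes was 0.51, beside 0.20 for all genes. In the related lists Rhbdf2 had the opposite sign (-0.55, SE 0.16, adjusted p = 0.0484), and 4 of 22 regulators passed, among them Jun at 1.55 (adjusted p = 0.0218), Fos at 1.496 (adjusted p = 0.0218) and Zfp36l1 at 1.00 (adjusted p = 0.034).

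Under isotype antibody, no cytokine gene of the 9 passed between GF and SPF mice by limma, while 7.17% of all genes did, and 1 of 9, Tnfsf11, had an unadjusted p under 0.05, against 25.5% of all genes. The median over the 9 genes was -0.043, beside 0.15 for all genes tested. Tnfsf11 held 14.5 to 21.6 TPM in GF isotype and 9.85 to 16.0 TPM in SPF isotype, and 8 of 10 GF libraries were above all SPF libraries. Its log2 fold change was 0.49 (SE 0.24, adjusted p = 0.188), and it passed where only these groups were fitted (adjusted p = 0.0127). Relative to Ltb in the same library, Tnfsf11 had median ratios of 0.0616 in SPF isotype and 0.101 in GF isotype, with ranges of 0.0519 to 0.0873 and 0.0754 to 0.121 that overlapped. Tnf, at 74.5 ± 11.5 TPM in GF isotype (SD, n = 10), Ltb, at 186 ± 23.9, and Tnfsf14, at 44.6 ± 7.94, had levels near those of SPF isotype, with log2 fold changes of -0.12 (95% confidence interval -0.43 to 0.19), -0.043 (-0.47 to 0.38) and -0.093 (-0.67 to 0.48). Summed stromal markers ran from 7.79 to 14.2 TPM in GF isotype and from 15.3 to 51.5 TPM in SPF isotype, and B and plasma cell markers from 10.995 to 114 and from 95.8 to 272 TPM. In the innate lymphoid list 5 of 7 tested genes were lower in GF isotype and 1 was higher, with Il22 at -2.79 (adjusted p = 0.000133) and Il23r at -1.75 (adjusted p = 0.000131). Their part in these comparisons was not tested.

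The GF isotype libraries themselves fell into sets by sample number. The column names number the libraries 1 to 12 in SPF, and 25 to 33 and 48 to 54 in GF, with F1 to F3 and M1 to M3 of GF isotype in the lower range and F4, F5, M4 and M5 in the higher. The labels do not say what these numbers stand for. Csf1 was 3.11 to 4.96 TPM in the 6 lower numbers and 0.718 to 1.699 TPM in the 4 higher, and Csf2 was 10.9 to 31.8 and 3.12 to 7.83 TPM. Lta was 6.90 to 9.43 and 3.93 to 5.71 TPM, and Tnfsf11 was 16.8 to 21.6 and 14.5 to 16.1 TPM. The sets did not overlap in these 4 of 9 genes, against 10% of all genes tested. In a test added after seeing the data, the higher numbers were lower by -1.31 in Csf1 (SE 0.14, adjusted p = 0.00163), -1.56 in Csf2 (SE 0.26, adjusted p = 0.00874), -0.61 in Lta (SE 0.11, adjusted p = 0.013) and -0.31 in Tnfsf11 (SE 0.08, adjusted p = 0.0383). These were 4 of 9 genes, against 10.3% of all genes tested.

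Comparisons of GF with SPF therefore depended on the set. With the lower numbers alone, Csf1 was higher in GF isotype than in SPF isotype (1.08, SE 0.12, adjusted p = 0.00134), as were Csf2 (0.87, SE 0.25, adjusted p = 0.0433) and Tnfsf11 (0.62, SE 0.12, adjusted p = 0.0107), and 12% of all genes passed. With the higher numbers alone, Csf1 stood at -0.23 (adjusted p = 0.397), Csf2 at -0.69 (adjusted p = 0.152) and Tnfsf11 at 0.31 (adjusted p = 0.189), and 2.71% of all genes passed. No number is shared by SPF and GF, so colonisation and number range cannot be told apart. Within GF, aCD3 against isotype gave the same sign in both ranges for each of the 9 genes, with Tnf at -0.62 and -0.39, Tnfsf14 at -1.06 and -0.44 and Csf1 at 1.28 and 1.03 in the lower and higher numbers. None of the 9 passed in either range, where 0.00821% of all genes passed.

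**Figure D4:**
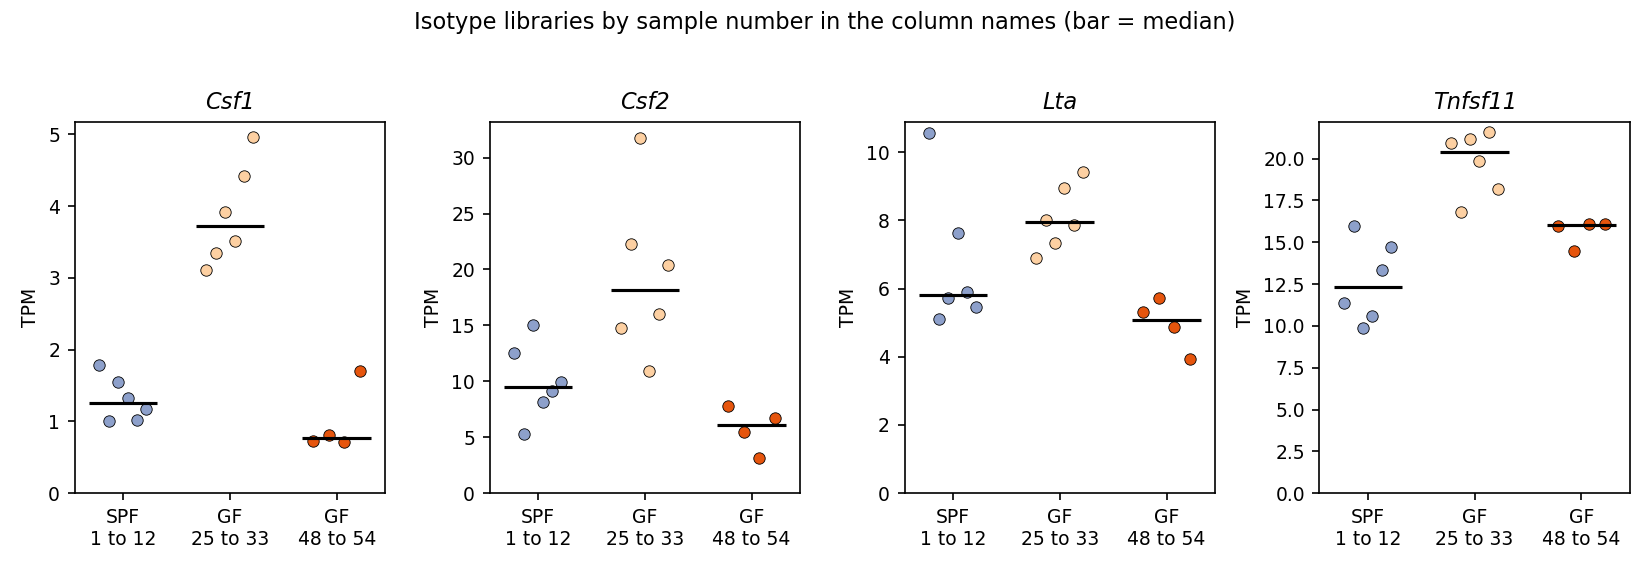
TPM (vertical) of 4 cytokine genes in isotype libraries, split by the sample number in the column names (horizontal; 6 SPF libraries, 6 GF libraries of the lower and 4 of the higher numbers), with bars at the medians. GF libraries numbered 25 to 33 are above those numbered 48 to 54 without overlap in all 4 genes, which are those of the 9 that did not overlap (10% of all genes did not).

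After aCD3, GF libraries as a group held more Tnf, Ltb, Tnfsf11 and Tnfsf14 and less Csf1 than SPF libraries. These 5 of 9 genes passed, against 53.3% of all genes tested, with 4 higher (48.9% of all genes) and 1 lower (4.46%). Under median-of-ratios scaling 3 of 9 passed, 2 higher and 1 lower, against 32.7% of all genes, and over all genes 1955 were higher and 2033 lower. Tnfsf14 was higher in 6 of 6 GF libraries than in any SPF library (12.2% of all genes were higher without overlap), at 7.66 to 58.5 against 2.77 to 5.92 TPM, a log2 fold change of 2.31 (SE 0.32, adjusted p = 5.92e-05). Tnfsf11 differed by 1.00 (SE 0.27, adjusted p = 0.00417), and in 4 of 6 GF libraries it was above all SPF libraries. Csf1 was 18.9 to 23.2 TPM in GF M1, M2 and M5, beside 17.1 to 23.1 TPM in SPF aCD3, and 0.660 to 3.20 TPM in GF F1, M3 and M4. As a group it differed by -1.52 (SE 0.50, adjusted p = 0.0139), and this did not pass without GF aCD3 F1 (-0.99, adjusted p = 0.0972). Tnf differed by 0.61 (SE 0.17, adjusted p = 0.00533) but by 0.21 under median-of-ratios scaling (adjusted p = 0.233), and Ltb by 0.65 (SE 0.24, adjusted p = 0.0253) but by 0.24 under that scaling (adjusted p = 0.354). Ltb did not pass without any of SPF aCD3 M3 or GF aCD3 F1, M1, M3 or M4, at 0.51 to 0.61. The median over the 9 genes was 0.61, beside 0.34 for all genes. This comparison shares its libraries with those above, and M1, M2 and M5 held less Tnfsf14 than the other GF libraries. With the GF libraries of the lower numbers alone 1 of 9 genes passed, Tnfsf8 at 2.05 (adjusted p = 0.00904), against 1.05% of all genes, and Tnfsf14 stood at 2.20 (adjusted p = 0.0503). With those of the higher numbers alone 5 of 9 passed, against 36.4%: Tnfsf14 at 2.48 (adjusted p = 0.034), Csf1 at -2.26 (adjusted p = 0.0348), Tnfsf11 at 1.06 (adjusted p = 0.0412), Tnf at 0.64 (adjusted p = 0.0487) and Csf2 at -1.02 (adjusted p = 0.0359). Myeloid markers summed to 9.72 to 60.6 TPM in GF aCD3 and 59.4 to 108 TPM in SPF aCD3, mostly Cd68, and B and plasma cell markers to 6.67 to 97.8 and 2.57 to 8.82 TPM, and their part in the differences was not tested.

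The order of the groups differed from gene to gene. By median, Tnf ran SPF isotype, GF isotype, GF aCD3, SPF aCD3 from high to low, and Ltb and Tnfsf14 had the same order, in which the isotype groups did not differ beyond their spread. Csf1 was highest in SPF aCD3 and next in GF aCD3, above both isotype groups. Lif was above both isotype groups in both aCD3 groups. The aCD3 groups are not ordered for Lif, since GF against SPF stood at 0.45 with the lower and -1.24 with the higher sample numbers. Its male libraries had means of 7.32 TPM in SPF aCD3 and 9.91 TPM in GF aCD3. The isotype groups are not ordered for Csf1 and Lif, since the sign of GF against SPF turned with the sample numbers of the GF libraries, at 1.08 with the lower and -0.23 with the higher for Csf1, and at 0.13 and -0.57 for Lif. Tnfsf11 was highest in GF isotype, at 18.1 ± 2.58 TPM (SD, n = 10), followed by GF aCD3, SPF isotype and SPF aCD3. The place of GF aCD3 in each order rests on a median between separate sets of libraries, as for Csf1, where the median of 11.07 TPM lay between 0.660 to 3.20 and 18.9 to 23.2 TPM with no library near it.

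The genes whose levels were most like those of each cytokine were picked by Pearson's r of log2(TPM + 1) over all 28 libraries, among 8292 genes. Libraries of a group share their treatment, so these values describe the pattern over groups and libraries and carry no p. For Tnf they were Ing3 (r = 0.94), Maff (0.93) and Lmo4 (0.93), and for Tnfsf14 they were Cd226 (0.98), an activating receptor of T and NK cells, Atf2 (0.98) and Axin2 (0.97), a Wnt target gene. For Ltb they were Clec2i (0.91), Tcf7 (0.91), which encodes TCF1, and Akap8l (0.90), and for Tnfsf11 Hs6st1 (0.95), Prps1 (0.95) and Qk (0.95). Among the genes most like Csf1 were Ckap2 (0.98) and Ckap2l (0.98), genes of the mitotic spindle, which like Csf1 had their highest group mean in SPF aCD3. Lif was most like Tubg1 (0.87), Myb (0.86) and Ppa1 (0.86), and Tnfsf8 was most like Egr2 (0.89), a transcription factor induced by T cell receptor signals, Cass4 (0.85) and Tox2 (0.83). The closest genes to Csf2 (Klrg1, 0.71; Naca, 0.68; Foxp3, 0.66) and to Lta (Nkapd1, 0.67; Pnkd, 0.65; Ccdc107, 0.62) were less close.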

How the data were processed

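The deposited table holds 1 TPM value per gene and library. Per the file headers, the authors made it with the HOMER program analyzeRepeats.pl on RefSeq transcripts (mm10), 1 entry per gene. In 99.2% of entries the length is the end minus the start, so TPM are per genomic span with introns. This lowers long genes against short ones. A gene's length is the same in all libraries, but its TPM also depends on the other genes of a library. Without Rn45s and histone genes, 3316 genes were called higher and 3876 lower with aCD3 in SPF mice, against 1726 and 6172 with them. The median gene then moved by -0.066, against -0.35. Aligner version, read filters and strand use are not given in the sources used here. The labels name polyA RNA and also a total RNA kit, and which holds was not settled. A further 26 TPM columns match no sample and were not used. The steps between low values gave whole reads per gene in 100.0% of values (tolerance 0.1 reads). No molecular identifiers are named, so reads can include copies of a molecule.

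A gene was tested if 6 or more libraries reached 1 TPM. The test was limma 3.58.1 (R 4.3.3) on log2 of TPM plus a pseudocount of 1, with the 4 groups and sex as terms, a mean-variance trend, and two-sided p-values with Benjamini-Hochberg adjustment over 12182 genes for each of 5 comparisons. Tables and figures used Python 3.11.15, pandas 2.3.3, NumPy 2.4.6 and matplotlib 3.10.9. The script was tested on simulated data. All 9 cytokine genes are reported, and each related list gives its counts and at most the 3 called genes of largest change with a mean of at least 5 TPM in a group compared. A few genes, such as Tnfrsf8, are named outside this rule. Some values of other genes are not reported here. The genes, lists and tests were chosen with earlier results of these data known. Replicate names shared by groups did not pair libraries: of 12 name pairs 4 had a correlation of deviations over 0.1 (range -0.21 to 0.20). Alternatives were pseudocounts, filters, scalings, voom on the recovered reads, array weights, covariates, the groups fitted, and leaving out each library.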

Additional observations from a re-analysis of the deposited data

Results flagged for a closer look

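Csf1 in SPF aCD3 M3, at 23.1 TPM, stood apart from the other 5 libraries of its group, which held 17.1 to 18.8 TPM. It was the 1 such value in 36 sets of a gene and a group, where chance gives about 1 in 20, or 1.8. The aCD3 effect on Tnfsf14 differed between germ-free and SPF mice by 2.40 on the log2 scale, by the test of that difference given above. Of the 6 GF aCD3 libraries, M1, M2 and M5 held 7.66 to 17.5 TPM of Tnfsf14, and F1, M3 and M4 held 42.6 to 58.5 TPM, in or just above the GF isotype range of 30.2 to 57.2 TPM.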

How the results depend on the processing

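Of 594 fold changes of a gene under settings other than leaving out a library, 537 kept their direction and side of the threshold, 27 lost and 13 gained a call and 17 reversed. The fits with either number range alone are not in this count, and their reversals are listed below. Leaving out a library kept 697 of 756. For aCD3 against isotype in SPF mice, 7 genes passed in the main setting, 6 to 8 under other settings and 6 to 7 without a library. In GF mice 1 gene passed, but 5 with array weights, 3 without the sex term or with the number range as a covariate, and 0 with a pseudocount of 0.1, no filter, median of ratios, removal of Rn45s and histone genes, voom, only the groups compared, a log2 fold change of at least 1 or either number range alone. Over all 12182 genes 862 passed in the main setting, 3636 with array weights, 2472 without the sex term and 2215 with the number range. With median of ratios 1175 passed, and 952 with voom. Without a library 0 to 6 of the 9 genes passed, with 6 without GF aCD3 M3, 4 without F1, 3 without M4 and 0 without M1, M2, M5 or any GF isotype library. Over all genes 4215 of 12147 passed without M3, 3627 of 12148 without F1 and 3861 of 12147 without M4, and 0 without any of the others. With the replicate block 0 of the 9 genes passed, and calls over all genes went from 862 to 0. The block changed no other count of the 9 genes, and 1 of 12 name pairs correlated best with its own name. Between GF and SPF isotype 0 genes passed, but 1 with only the groups compared and 3 with the lower numbers. Over all 12182 genes 874 passed in the main setting, and 1812 and 1462 in these 2. Between GF and SPF aCD3 5 passed, but 3 with median of ratios, quantile normalization, array weights, only the groups compared or a log2 fold change of at least 1, and 1 with the lower numbers (4 to 5 without a library). Over all genes these settings gave 3988, 3348, 3680, 4586, 667 and 128 calls in that order, against 6496 in the main setting and 4886 to 7226 without a library. The difference of effects gave 1 gene, 2 with median of ratios or the number range, and 1 to 4 without a library. Over all 12182 genes it gave 424 calls, 1382 with median of ratios and 557 with the number range. Without a library it gave 32 to 3187 calls over all genes, with 3187 of 12158 without GF aCD3 M5. The number range could not be fitted for GF against SPF.

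Reversed directions were of fold changes not called in the main setting. Tnfsf8 in SPF mice stood at 0.087 with median of ratios, 0.036 without Rn45s and histone genes and 0.062 with voom. Lta between isotype groups stood at -0.12 with median of ratios, -0.15 with quantile normalization, -0.11 with voom, -0.034 with array weights, -0.35 with the higher numbers and -0.057 to 0.14 without a library. Between aCD3 groups Lta stood at -0.22 with median of ratios and voom, -0.27 with quantile normalization, -0.066 without Rn45s and histone genes and -0.19 to 0.27 without a library. The difference of effects for Lta stood at -0.0070 with a pseudocount of 5, -0.11, -0.12, -0.077 and -0.12 with median of ratios, quantile normalization, removal of Rn45s and histone genes and voom, and -0.21 to 0.24 without a library. For Lif it stood at 0.0093 with array weights. Between isotype groups, the lower numbers gave 0.013 for Ltb, 0.33 for Tnfsf8, 0.028 for Tnfsf14 and 0.13 for Lif, the higher numbers -0.23 for Csf1 and -0.69 for Csf2, and Ltb ran from -0.080 to 0.0073 without a library. Between aCD3 groups the lower numbers gave 0.38 for Csf2 and 0.45 for Lif. The cause was not tested.

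Depth limits Lta, at a median of 22 reads per library, and Csf2 and Lif, at 49 and 51.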

Other observations

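Among genes that act with these cytokines, a few differed between GF and SPF mice under isotype antibody. The AP-1 subunit Jun was lower in GF mice, at 876 ± 267 TPM (SD, n = 10) against 2296 ± 484 TPM (SD, n = 6), a log2 fold change of -1.42 (SE 0.23, adjusted p = 0.000624). It stood at -1.59 under median-of-ratios scaling. Tnfrsf1b, which encodes TNFR2, was higher in GF mice by 0.44 (SE 0.13, adjusted p = 0.0335), Tnfsf10 by 0.38 (SE 0.10, adjusted p = 0.0201), Hnrnpd, which encodes the messenger decay factor AUF1, by 0.44 (SE 0.08, adjusted p = 0.0019), and the TNF-releasing protease gene Adam17 by 0.30 (SE 0.09, adjusted p = 0.0349). None of these 4 passed under median-of-ratios scaling, with adjusted p from 0.0662 to 0.366. Over all genes 782 were higher and 92 lower in GF mice, but 63 and 141 under that scaling.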
